A study of Mus musculus with 4 samples.

Results

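The genes described here are the integrin chains and a set of adhesion molecules through which blood stem cells hold on to their marrow niche. They were picked by gene symbol from a list that holds most integrin alpha and beta chains with a number or a single letter in their name, plus Jam2, Jam3, F11r, Icam1, Icam2, Vcam1, Cdh1, Cdh2, Selplg and Cd47. The choice gave 34 of the 23450 listed genes, namely 17 alpha chains, 7 beta chains and 10 other adhesion molecules. Itga2b, whose symbol has a number and a letter, lies outside it. Transcripts were measured by RNA sequencing in mouse bone marrow hematopoietic stem cells (HSCs), in 2 libraries of each group, each made from 2000 sorted cells. Long-term HSCs (LT-HSC) were sorted as CD48-, CD150+, CD34- and high for the tetraspanin CD9. Short-term HSCs (ST-HSC) were sorted as CD48-, CD150+ and low for CD9, with no CD34 gate given. The labels give no strain, genotype, age or sex of the mice and do not say whether the libraries came from separate animals, so p-values measure only the spread between libraries, which may be technical.

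Integrins are receptors made of 1 alpha and 1 beta chain. They bind matrix proteins such as fibronectin and laminins, or counter-receptors on other cells such as VCAM1 and the ICAMs, and the proteins talin and kindlin tie their beta tails to the actin skeleton. In marrow, alpha 4 beta 1 holds stem and progenitor cells to VCAM1 and fibronectin, and alpha 6 beta 1 binds laminins. Junctional adhesion molecules (JAMs) bind each other across cell contacts, PSGL-1 (the product of Selplg) is a ligand of the selectins, and CD47 restrains phagocytosis through SIRP alpha.

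Library totals ran from 13080098 to 16158977 reads. Pearson's r of log2(CPM + 1) over genes was 0.892 within LT-HSC, 0.925 within ST-HSC and 0.885 to 0.915 across the groups, so the LT-HSC libraries were no closer to each other than some were to ST-HSC. The HSC markers Slamf1, Procr, Mecom, Hlf, Kit and Ly6a were all read in every library. Of these 6, 4 (Slamf1, Procr, Mecom and Hlf) lay higher in both LT-HSC libraries, beside 16.1% of all tested genes, and Kit and Ly6a overlapped. The 8 cycling-cell markers summed to 328 and 325 CPM (reads scaled to equal library totals) in LT-HSC and to 920 and 1400 CPM in ST-HSC, and 6 of the 8 lay lower in both LT-HSC libraries, beside 17.5% of all tested genes. Their part in the values that follow was not tested. Markers of other blood cells were read unevenly, and some stood at the lowest value of the files, called the minimum here, which stands for at most 1 read. Of 6 platelet markers, Gp9 was at 48.6 to 53.8 CPM and Pf4 at 24.01 to 34.03 CPM, while Gp6 was at the minimum in all 4 libraries. Of 5 B cell markers, Cd79b was at 91.9 to 208.8 CPM and Pax5 at the minimum throughout. Of 6 T and NK cell markers, Nkg7 was at 13.2 to 97.2 CPM and Cd3e and Cd3d were at the minimum throughout. In RNA from pooled cells, fewer cells of a type and less RNA per cell cannot be told apart.

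A gene was tested where it reached 1 CPM in at least 2 libraries, which 26 of the 34 did. At a limma adjusted p under 0.05, 0 of the 26 were higher and 0 lower in LT-HSC, as for all 12608 tested genes (0.00% in each direction). The smallest adjusted p among them was 0.718. At an unadjusted p under 0.05, limma placed 3 higher in LT-HSC (Jam2, Itga6 and Icam1) and 0 lower, where 2.92% of all tested genes were higher and 3.59% lower. Both LT-HSC values exceeded both ST-HSC values for 8 of the 26 (30.8%, against 16.1% of all tested genes) and were below both for 4 (15.4%, against 17.5%). Of those 8, Jam2 and Itgb4 passed the filter only through their LT-HSC values, so their place above ST-HSC was partly set by it. The same holds for Jam2 among the 3 genes placed higher at an unadjusted p under 0.05. The median log2 fold change of the 26 was 0.10, beside -0.01 over all tested genes. It was -0.57 without ST-HSC 2 and 0.46 without ST-HSC 1. Counts of genes above or below the other group can only stay or rise when a library is left out, so they are not set beside these shares. No single difference below is therefore a call, and each is given as values.

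**Figure D1:**
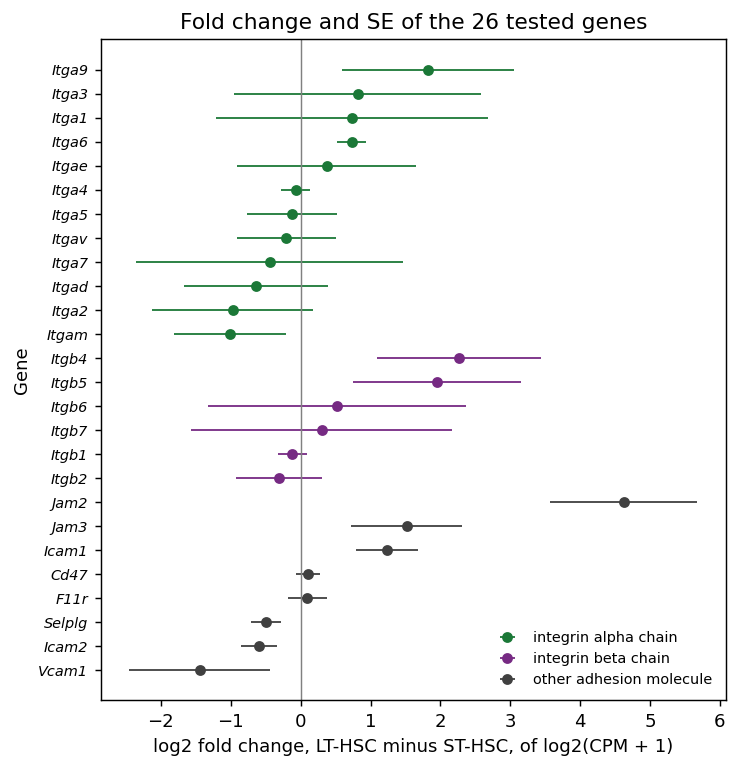
Log2 fold change of LT-HSC minus ST-HSC (x axis, on the log2(CPM + 1) scale) for the 26 tested genes (y axis), with bars of 1 SE from the limma fit and colour by kind of chain. Jam2 lies farthest to the right at 4.62, Itga6 and Itga4 have narrow bars at 0.73 and -0.07, and the bars of Itga1, Itga7, Itgb6 and Itgb7 span 0 widely.

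Among the alpha chains, Itga6 was the one whose libraries separated most clearly by group. Itga6, the laminin-binding alpha 6 chain, stood at 294 and 324 CPM in LT-HSC 1 and 2 and at 184 and 188 CPM in ST-HSC 1 and 2. Both LT-HSC values lay above both ST-HSC values, and the gap between groups exceeded the spread within either. The log2 fold change was 0.73 ± 0.21 (SE; limma unadjusted p = 0.0170, adjusted p = 0.718). It held between 0.66 and 0.80 under all 14 alternative settings, although the unadjusted p was 0.0866 without ST-HSC 1 and 0.0762 without ST-HSC 2.

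Itga4, the chain that binds VCAM1 and fibronectin, did not separate the groups. It stood at 337 and 416 CPM in LT-HSC against 357 and 434 CPM in ST-HSC, with a log2 fold change of -0.07 ± 0.21 (SE; limma adjusted p = 0.9998). The 2 libraries numbered 2 were the higher ones in each group. Itga5, the fibronectin receptor chain, had the same order, at 26.5 and 69.2 CPM in LT-HSC against 39.8 and 55.0 CPM in ST-HSC, so the groups overlapped (-0.12 ± 0.65, log2 fold change and SE). Itgav, which binds vitronectin and other matrix proteins, also overlapped, at 21.02 and 24.57 CPM in LT-HSC against 34.8 and 19.8 CPM in ST-HSC.

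Itgb1, the shared partner of these 4 alpha chains, was nearly level. It stood at 228 and 221 CPM in LT-HSC against 242 and 245 CPM in ST-HSC. The log2 fold change was -0.12 ± 0.21 (SE; limma adjusted p = 0.9998). Both LT-HSC values lay below both ST-HSC values, but by less than the fitted SE. Set beside Itgb1, the level of Itga6 was larger in both LT-HSC libraries. Per kb of exon, Itga6 amounted to 1.13 and 1.29 times Itgb1 in LT-HSC and to 0.665 and 0.673 times Itgb1 in ST-HSC. Per kb of coding sequence it amounted to 0.961 and 1.09 times Itgb1 in LT-HSC and to 0.57 times in each ST-HSC library. Whether Itga6 exceeds Itgb1 thus depends on the length taken. For Itga4 the ratio to Itgb1 per kb of exon was 0.577 and 0.738 in LT-HSC and 0.577 and 0.693 in ST-HSC.

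The 12 alpha chains that can pair with the beta 1 chain were summed per kb of exon in each library. Itga6 and Itga4 together made up 85.4% and 84.4% of that sum in LT-HSC and 75.3% and 84.7% in ST-HSC. Itga6 alone gave 56.5% and 53.7% in LT-HSC and 40.3% and 41.8% in ST-HSC. The ratio of Itga6 to Itga4 was 1.96 and 1.75 in LT-HSC and 1.15 and 0.972 in ST-HSC. Which of the 2 is the more abundant depends on the length taken. With coding sequence as the length, the share of Itga6 was 39.3% and 37.4% in LT-HSC and 26.2% in each ST-HSC library. Per kb of coding sequence the ratio was 0.841 and 0.749 in LT-HSC and 0.495 and 0.418 in ST-HSC, so that Itga4 led in every library. A gene's length is the same in every library, so the choice of length cannot change the order of the libraries in this ratio. These shares describe transcripts and were not tested.

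**Figure D2:**
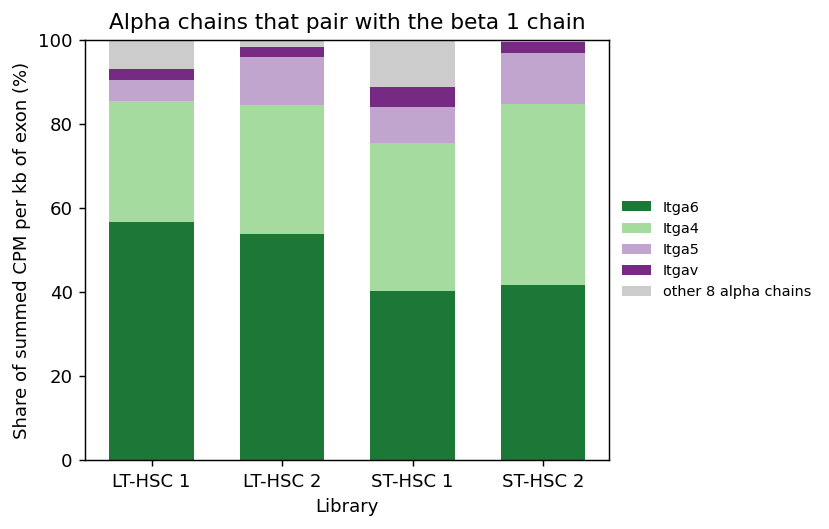
Share (y axis, percent) that each alpha chain takes of the summed CPM per kb of exon over the 12 alpha chains that can pair with the beta 1 chain, in each of the 4 libraries (x axis). Itga6 takes 56.5% and 53.7% in LT-HSC and 40.3% and 41.8% in ST-HSC, and Itga4 and Itga6 together take at least 75.3% in every library. The shares depend on the length taken.

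The alpha chains share a short stretch just inside the membrane, glycine, phenylalanine, phenylalanine, lysine and arginine, which packs against the beta chain and helps to hold an integrin inactive. A search of the principal coding sequences (GENCODE M21, GRCm38) found it in 13 of the 17 alpha chains, and Itga8, Itga9, Itga10 and Itga11 did not hold these exact residues. The stretch is shown for the 4 beta 1 partners above and for Itgam, because it is the part by which these chains meet their beta partners. Each line gives coding strand bases 5′ to 3′, with the codons of the stretch in capitals. Itga6 (chromosome 2) covers coding bases 3094 to 3156, Itga4 (chromosome 2) 2983 to 3045, Itga5 (chromosome 15) 3058 to 3120, Itgav (chromosome 2) 3019 to 3081 and Itgam (chromosome 7) 3370 to 3432.
Itga6: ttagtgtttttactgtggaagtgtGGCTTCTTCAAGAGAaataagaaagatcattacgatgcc
Itga4: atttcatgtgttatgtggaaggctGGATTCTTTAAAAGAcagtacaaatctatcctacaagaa
Itga5: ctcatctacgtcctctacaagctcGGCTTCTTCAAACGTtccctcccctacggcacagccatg
Itgav: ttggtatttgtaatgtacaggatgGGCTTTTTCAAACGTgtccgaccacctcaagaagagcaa
Itgam: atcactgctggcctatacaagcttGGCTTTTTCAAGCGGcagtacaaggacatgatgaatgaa
The 5 chains encode the same residues there with different codons, and the bases around them differ.

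Beta tails carry 1 or 2 copies of another short stretch, asparagine, proline, any residue and then tyrosine or phenylalanine, where talin and kindlin bind. It was found near the end of 5 of the 7 beta chains, all but Itgb4 and Itgb8. The first copy is shown for the 2 beta chains with the most reads, Itgb1 (chromosome 8, coding bases 2314 to 2373) and Itgb2 (chromosome 10, coding bases 2230 to 2289), with its codons in capitals.
Itgb1: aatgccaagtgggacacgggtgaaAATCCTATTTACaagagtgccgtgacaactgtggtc
Itgb2: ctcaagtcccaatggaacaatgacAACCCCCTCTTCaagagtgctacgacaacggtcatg
The capitals end in a tyrosine codon in Itgb1 and in a phenylalanine codon in Itgb2.

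The remaining beta 1 partners were read at low and uneven levels. Itga1, a collagen-binding chain, was at 25.5 and 2.78 CPM in LT-HSC against 27.6 and 0.270 CPM in ST-HSC. Itga3, a laminin-binding chain, was at 9.63 and 6.003 CPM in LT-HSC, read 346 times in ST-HSC 1 and at the minimum in ST-HSC 2. Itga7, also laminin-binding, had 8.41 CPM in LT-HSC 1 against 16.4 CPM in ST-HSC 1 and was at the minimum in both libraries numbered 2. In these 3 genes both libraries numbered 1 were the high ones, whichever the group. The log2 fold changes were 0.73 ± 1.95 for Itga1, 0.82 ± 1.77 for Itga3 and -0.44 ± 1.92 for Itga7 (SE; limma adjusted p = 0.9998 for each).

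Itga2, another collagen-binding chain, was at 0.153 and 3.84 CPM in LT-HSC against 4.32 and 3.03 CPM in ST-HSC (-0.97 ± 1.16, log2 fold change and SE). Itga9, which binds tenascin and osteopontin among others, was at 11.1 and 2.10 CPM in LT-HSC against 1.99 CPM in ST-HSC 1, with ST-HSC 2 at the minimum. Its groups did not overlap, but LT-HSC 2 and ST-HSC 1 differed by only 4 reads (34 and 30). The log2 fold change was 1.82 ± 1.23 (SE; limma adjusted p = 0.871), and with 1 library left out it lay between 0.84 (without LT-HSC 1) and 2.80 (without LT-HSC 2). Itga10 had 44 reads in LT-HSC 1 alone, Itga8 had 6 reads in LT-HSC 2 alone, and Itga11 was at the minimum in all 4 libraries.

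**Figure D3:**
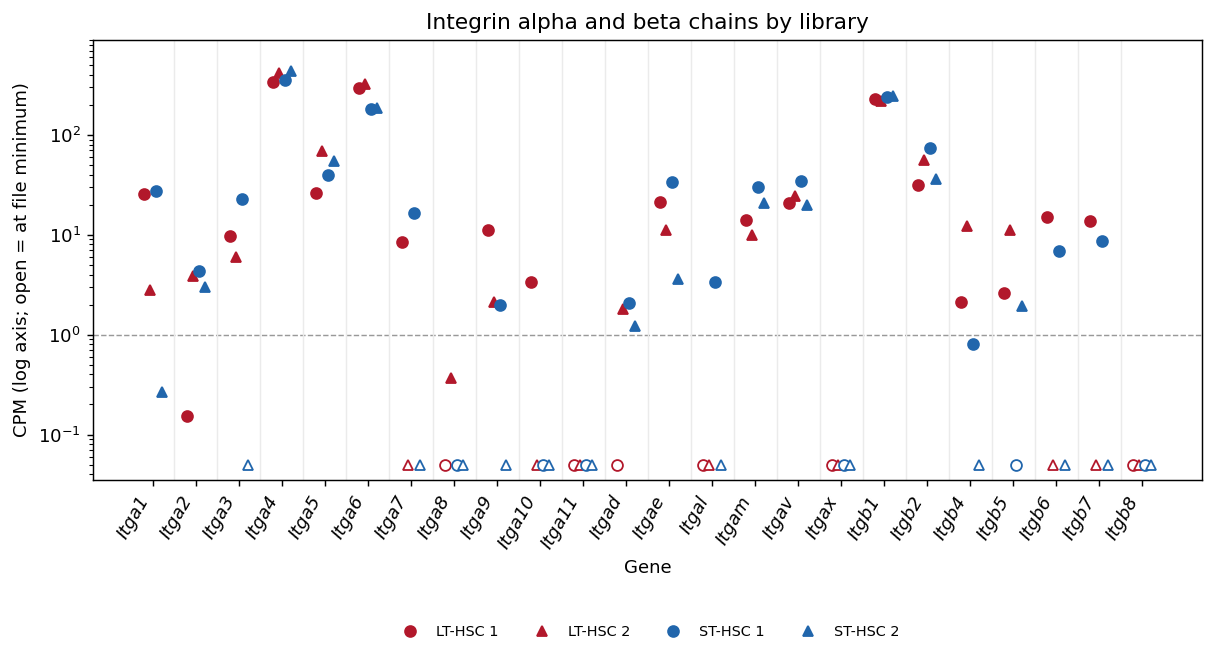
CPM on a log axis (y) of the 17 alpha and 7 beta chains (x) in LT-HSC 1 and 2 (red circle and triangle) and ST-HSC 1 and 2 (blue circle and triangle). Open symbols stand for values at the file's minimum, and the dashed line marks 1 CPM. Itga6 has both red symbols above both blue ones, while Itga7, Itgb6 and Itgb7 have both triangles, the libraries numbered 2, at the minimum.

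Itgb4, Itgb5, Itgb6 and Itgb7 were at most at 15.1 CPM. Itgb4, the partner of alpha 6 in epithelial hemidesmosomes, was at 2.14 and 12.3 CPM in LT-HSC, at 0.798 CPM in ST-HSC 1 and at the minimum in ST-HSC 2. It thus lay above both ST-HSC libraries, as its partner Itga6 did, with a log2 fold change of 2.27 ± 1.17 (SE; limma adjusted p = 0.815). That value was 1.23 without LT-HSC 2 but 3.31 when LT-HSC 1 was left out. Itgb4 passed the filter only through LT-HSC. Its level per kb of exon was 0.335 and 1.92 in LT-HSC, against 67.5 and 74.4 for Itga6 in the same libraries. Itgb5, which pairs with alpha V, was at 2.60 and 11.3 CPM in LT-HSC, at the minimum in ST-HSC 1 and at 1.95 CPM in ST-HSC 2. The log2 fold change of Itgb5 was 1.95 ± 1.21 (SE; limma adjusted p = 0.860), while that of its partner Itgav was -0.20 ± 0.70 (SE). For Itgb5 it was 1.07 without LT-HSC 2, 1.17 without ST-HSC 1 and 2.83 without LT-HSC 1.

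Itgb6, another alpha V partner, was at 15.1 CPM in LT-HSC 1 against 6.85 CPM in ST-HSC 1. Itgb7, the partner of alpha 4 and alpha E on lymphocytes, was at 13.7 CPM in LT-HSC 1 against 8.64 CPM in ST-HSC 1. Both were at the minimum in LT-HSC 2 and ST-HSC 2, so these 2 genes followed the library number and not the group. Itgae, the alpha E chain that binds E-cadherin, was at 21.1 and 11.2 CPM in LT-HSC against 33.8 and 3.64 CPM in ST-HSC. The log2 fold changes were 0.52 ± 1.85 for Itgb6, 0.30 ± 1.87 for Itgb7 and 0.37 ± 1.28 for Itgae (SE; limma adjusted p = 0.9998 for each). With these 3, 6 of the 26 tested genes were higher in both libraries numbered 1 than in both numbered 2, beside 19.5% of all tested genes. Itgb8 was at the minimum in all 4 libraries.

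The leukocyte integrins share the beta 2 chain. Itgb2 was at 31.4 and 55.7 CPM in LT-HSC against 74.6 and 36.1 CPM in ST-HSC, so the groups overlapped (-0.31 ± 0.61, log2 fold change and SE). Itgam, the alpha M chain (CD11b) of myeloid cells, was at 14.22 and 10.03 CPM in LT-HSC against 30.17 and 21.03 CPM in ST-HSC. Both LT-HSC values were under both ST-HSC values. The log2 fold change was -1.02 ± 0.80 (SE; limma adjusted p = 0.900). Itgad was at the minimum in LT-HSC 1 and at 1.79, 2.06 and 1.21 CPM in LT-HSC 2, ST-HSC 1 and ST-HSC 2 (-0.64 ± 1.03, log2 fold change and SE). Itgal, the alpha L chain of lymphocytes, had 51 reads in ST-HSC 1 alone, and Itgax, a dendritic cell marker, was at the minimum in all 4 libraries.

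Markers of granulocytes and monocytes were read beside Itgam. The 8 granulocyte and monocyte markers summed to 524 and 403 CPM in LT-HSC against 501 and 452 CPM in ST-HSC. The neutrophil gene Ctsg was at the minimum in all 4 libraries, while Mpo was at most 0.124 CPM in LT-HSC against 10.1 and 21.4 CPM in ST-HSC. Mpo passed the filter only through ST-HSC, so its lower place in LT-HSC was partly set by the filter. S100a9 was also lower, at 17.0 and 14.2 CPM in LT-HSC against 61.5 and 18.9 CPM in ST-HSC. Lyz2 lay slightly higher, at 153 and 147 CPM in LT-HSC against 146 and 140 CPM in ST-HSC. For Elane, Prtn3, S100a8 and Csf1r the groups overlapped. Their part in the Itgam values was not tested. The 250 bases before the Itgam start (RefSeq, GRCm38.p6, chr7:128062390-128062639, plus strand) are shown because PU.1, a myeloid transcription factor, is known to act on this promoter. The letters GAGGAA, a core of the PU.1 motif, were searched on both strands and are in capitals.
Itgam: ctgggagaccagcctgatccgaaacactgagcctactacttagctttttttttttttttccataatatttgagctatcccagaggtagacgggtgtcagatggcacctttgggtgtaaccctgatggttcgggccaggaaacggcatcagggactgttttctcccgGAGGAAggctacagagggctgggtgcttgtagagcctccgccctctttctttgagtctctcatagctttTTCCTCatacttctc
They occur at bases -84 to -79 on the same strand and at -15 to -10 on the opposite strand, counted back from the start. The same letters occur in 23.3% of 32851 promoter windows of this length, so a match is no more than a description.

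Fold changes of alpha chains were set beside those of their beta partners. Of the 22 alpha and beta pairs considered, 16 had both chains tested, and the fold changes had the same sign in 9 of them and opposite signs in 7. Pairs that share a chain are not independent. Itga6 and Itgb1, both well read, were among those with opposite signs, at 0.73 ± 0.21 and -0.12 ± 0.21 (log2 fold change and SE).

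Of the junctional adhesion molecules, Jam2 and Jam3 had both LT-HSC values above both ST-HSC values, and F11r overlapped. Jam2, which encodes JAM-B, was at 15.2 and 36.3 CPM (199 and 587 reads) in LT-HSC and at the minimum in both ST-HSC libraries. Against a floor of 3 reads per library, Jam2 was 128-fold higher in LT-HSC. With LT-HSC 1 alone it was 75.8-fold higher, and with LT-HSC 2 alone 181-fold. The floor covers only counting error and not the spread between libraries, so these folds are no lower bound. Itgb7, for example, had 179 reads in LT-HSC 1 and was at the minimum in LT-HSC 2. The log2 fold change of Jam2 on the log2(CPM + 1) scale was 4.62 ± 1.05 (SE; limma unadjusted p = 0.00674, adjusted p = 0.718). Under each filter used, Jam2 passed only through LT-HSC, so its higher values were partly set by the filter in every alternative setting. Over the 14 alternative settings the fitted fold change of Jam2, which depends on the value added to each CPM, lay between 3.16 and 9.53.

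Jam3 encodes JAM-C, the binding partner of JAM-B. It was at 45.1 and 94.4 CPM in LT-HSC against 39.5 and 12.2 CPM in ST-HSC. Both LT-HSC values exceeded both ST-HSC values, although LT-HSC 1 and ST-HSC 1 were close, and the log2 fold change was 1.52 ± 0.79 (SE; limma adjusted p = 0.815). Leaving out ST-HSC 2 gave 0.71, and leaving out ST-HSC 1 gave 2.33. F11r, which encodes JAM-A, was at 176 and 164 CPM in LT-HSC against 137 and 185 CPM in ST-HSC (0.10 ± 0.28, log2 fold change and SE). The 8 endothelial and stromal markers, cell types in which JAM-B is also found, summed to 231 and 187 CPM in LT-HSC against 136 and 116 CPM in ST-HSC. Of these, Emcn, which stem cells also express, gave 133 and 165 CPM in LT-HSC against 123 and 84.2 CPM in ST-HSC, and Kdr, an endothelial receptor, was at 30.4 and 14.9 CPM in LT-HSC against 10.4 and 8.56 CPM in ST-HSC. The stromal genes Col1a2 and Cxcl12 had their reads almost wholly in LT-HSC. Col1a2 had 509 and 112 reads there against 0 and 2 in ST-HSC, and Cxcl12 had 312 and 6 reads there, with ST-HSC at the minimum. Pdgfrb and Cdh5 had their highest values in ST-HSC 2, at 13.1 and 9.91 CPM, Col1a1 had at most 3 reads, and Lepr was at the minimum throughout. Their part in the Jam2 values was not tested.

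**Figure D4:**
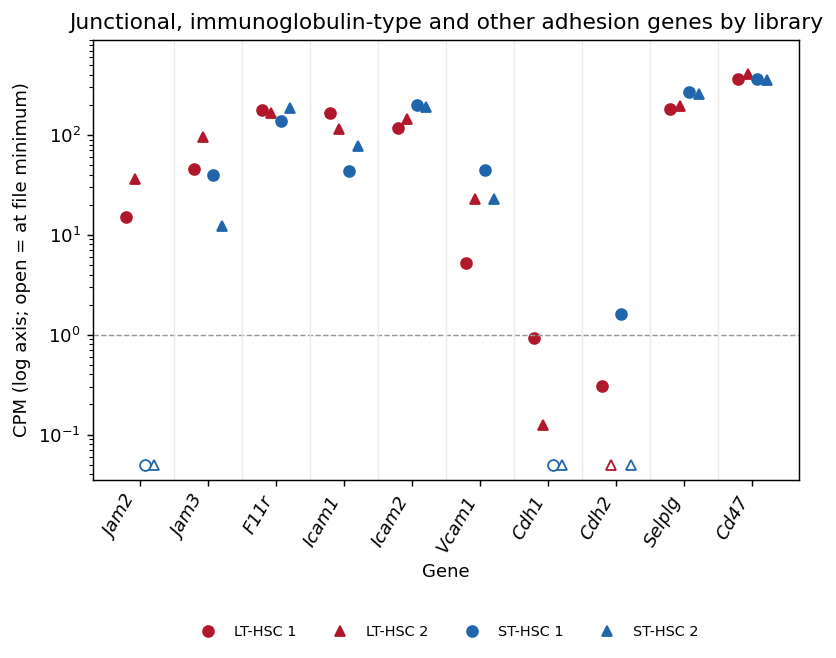
CPM on a log axis (y) of the 10 other adhesion genes (x) in LT-HSC 1 and 2 (red circle and triangle) and ST-HSC 1 and 2 (blue circle and triangle). Open symbols stand for values at the file's minimum, and the dashed line marks 1 CPM. Jam2 is at the minimum in both ST-HSC libraries, Icam1 has its red symbols on top, and Icam2 and Selplg have their blue symbols on top.

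The ICAM genes encode ligands of the beta 2 integrins, and Icam1 and Icam2 pointed in opposite directions. Icam1, which inflammatory signals induce, was at 165 and 116 CPM in LT-HSC against 43.1 and 78.3 CPM in ST-HSC. Both LT-HSC values exceeded both ST-HSC values, with a log2 fold change of 1.23 ± 0.45 (SE; limma unadjusted p = 0.0395, adjusted p = 0.758). The unadjusted p was 0.202 without LT-HSC 1, 0.0966 without LT-HSC 2 and 0.164 without ST-HSC 1. Icam2, the constitutive ICAM of blood and endothelial cells, was at 118 and 143 CPM in LT-HSC against 201 and 192 CPM in ST-HSC. Both LT-HSC values were under both ST-HSC values, with a log2 fold change of -0.60 ± 0.26 (SE; limma adjusted p = 0.769).

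The 250 bases before the Icam1 start (RefSeq, GRCm38.p6, chr9:21015690-21015939, plus strand) are shown because NF-kB, the factor through which cytokines induce this gene, has a known site there. The letters GGAAATTCC, searched on both strands, are in capitals.
Icam1: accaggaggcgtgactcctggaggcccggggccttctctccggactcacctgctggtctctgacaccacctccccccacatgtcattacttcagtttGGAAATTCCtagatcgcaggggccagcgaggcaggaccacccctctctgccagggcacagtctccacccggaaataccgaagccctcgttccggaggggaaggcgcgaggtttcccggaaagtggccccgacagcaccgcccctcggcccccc
The single match lies at bases -153 to -145 from the start. These letters were found in 0.286% of the 32851 promoter windows, and among the 20 of the 34 genes with a promoter in the table, in Icam1 only. No other motif searched overlaps it. The match is a description of the window and says nothing of the factor's activity in these cells. Other motifs were searched on both strands for comparison. A second NF-kB form starting with GGG was in 0.140% of windows. The GC box, written GGGCGG, was in 32.7%, and the ETS core, written CCGGAA, was in 12.03%. The GATA motif, written AGATAA, was in 9.99% of windows, and the TATA box, written TATAAA, was in 12.4%. The AP-1 motif, written TGANTCA with N for any base, was in 6.75%. The STAT motif, written TTCNNNGAA, was in 7.02%. The GC box was in 9 of the 20 promoters, and the second NF-kB form and the TATA box in 0.

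Vcam1, the counter-receptor of alpha 4 beta 1, was at 5.199 and 22.59 CPM in LT-HSC against 44.93 and 22.58 CPM in ST-HSC. LT-HSC 2 and ST-HSC 2 were level, and the log2 fold change of -1.44 ± 1.01 (SE; limma adjusted p = 0.873) was -0.48 without LT-HSC 1. Selplg was at 181 and 193 CPM in LT-HSC against 271 and 258 CPM in ST-HSC, with no overlap. Its log2 fold change was -0.50 ± 0.21 (SE; limma adjusted p = 0.767). Cd47 was at 365 and 412 CPM in LT-HSC against 364 and 357 CPM in ST-HSC. Its groups did not overlap, but by a gap of about 1 CPM, and the log2 fold change was 0.11 ± 0.18 (SE).

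The classical cadherins, which join cells through like molecules on their neighbours, were close to unread. Cdh1 (E-cadherin) had 12 and 2 reads in LT-HSC and was at the minimum in ST-HSC. Cdh2 (N-cadherin) had 4 reads in LT-HSC 1 and 24 in ST-HSC 1 and was at the minimum in both libraries numbered 2. Neither passed the filter, so neither was tested.

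Other genes of the adhesion pathway were counted from lists. Of 34 genes that activate integrins or link them to actin, 29 were tested, and limma placed 1 higher and 0 lower at an unadjusted p under 0.05, beside 2.92% and 3.59% of all tested genes. That gene was Rapgef1, an exchange factor for the integrin activator Rap1, at 140 and 256 CPM in LT-HSC against 85.4 and 51.5 CPM in ST-HSC (adjusted p = 0.718). Tln1, the talin gene, was at 332 and 293 CPM in LT-HSC against 285 and 195 CPM in ST-HSC. Fermt3, the kindlin of blood cells, was at 116 and 91.5 CPM in LT-HSC against 95.1 and 100.9 CPM in ST-HSC. The median log2 fold change of the 29 was -0.07. Of the 28 matrix and counter-receptor ligands, 12 were tested and 2 were higher, Vwf (von Willebrand factor, at 304 and 380 CPM in LT-HSC against 45.4 and 9.23 CPM in ST-HSC) and Col1a2 (a collagen gene, at 38.9 and 6.93 CPM in LT-HSC against at most 0.135 CPM in ST-HSC). Col1a2 passed the filter only through LT-HSC. The ligand genes Vtn, Thbs2, Lamb3, Lamc3, Madcam1, Fbln5 and Sirpb1a were at the minimum in all 4 libraries.

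Of 12 selectin and PSGL-1 pathway genes, 11 were tested, 0 were higher and 1 was lower at an unadjusted p under 0.05 (2.92% and 3.59% of all tested genes, also for the lists that follow). That was Fut7, the fucosyltransferase that completes selectin ligands on PSGL-1, at 2.14 and 0.371 CPM in LT-HSC against 90.5 and 27.3 CPM in ST-HSC. Its log2 fold change was -4.62 ± 1.14 (SE; limma adjusted p = 0.718), in the same direction as that of Selplg. Of 25 other adhesion molecules, 24 were listed and 19 tested, with 3 higher (Cadm1, Podxl and Robo4) and 2 lower (Cd44 and Cd34, whose protein was gated on in LT-HSC alone). Robo4, a guidance receptor of endothelial and stem cells, was at 210 and 122 CPM in LT-HSC against 67.1 and 16.8 CPM in ST-HSC. Cadm1, an immunoglobulin-type adhesion molecule, was at 9.02 and 8.66 CPM in LT-HSC against at most 0.532 CPM in ST-HSC. Podxl, a sialomucin related to CD34, was at 10.09 and 5.88 CPM in LT-HSC against at most 0.266 CPM in ST-HSC. Cadm1 and Podxl passed the filter only through LT-HSC, so their higher values were partly set by it. Cd34 was at 134 and 201 CPM in LT-HSC against 324 and 430 CPM in ST-HSC. Cd44, the hyaluronan receptor, was at 150 and 270 CPM in LT-HSC against 381 and 527 CPM in ST-HSC (limma adjusted p = 0.722). Of 6 tetraspanins that bind integrins, 1 was lower at an unadjusted p under 0.05, Cd37, at 130 and 108 CPM in LT-HSC against 210 and 226 CPM in ST-HSC. Cd9 itself, the sorted protein's gene, was at 134 and 124 CPM in LT-HSC against 100.4 and 113 CPM in ST-HSC. None of the 5 cadherin partner genes, of which 4 were tested, reached an unadjusted p under 0.05. The smallest p was that of Jup (plakoglobin), at 9.33 and 5.01 CPM in LT-HSC against 13.7 and 27.6 CPM in ST-HSC. Next was Ctnna1 (alpha-catenin), at 28.4 and 83.4 CPM in LT-HSC against 43.4 and 149.9 CPM in ST-HSC.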

How the data were processed

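Per the labels' protocols, SMARTer cDNA was made from 2000 sorted cells for each library and prepared the standard Illumina way. TopHat and mm9 are named in the submitters' processing notes. For the counter, annotation, strand and filters the sources used here give nothing. The deposited values are log2 of CPM made by the authors, with 23450 genes per library. Their low steps are whole reads over 1 total per library (100% within 0.1 of a whole read up to 100 reads). The reads above the minimum fell short of that total by 335 to 635 reads, which leaves room for genes with 1 read at the minimum. Reading the values as reads plus 1 would leave 13653 to 15183 reads. Genes at the minimum were therefore taken as holding at most 1 read and set to 0. A floor of 3 reads equals 0.186 to 0.229 CPM, which covers only counting error, as reads from amplified cDNA can repeat a molecule.

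Genes reaching 1 CPM in 2 or more libraries were tested on log2(CPM + 1), LT-HSC minus ST-HSC, by limma (version 3.58.1, with a robust trend and statmod 1.5.0, run under R 4.3.3), adjusted over all 12608 genes by the Benjamini-Hochberg method. Fold changes on this scale understate changes of low genes. All 34 genes are reported. From each other list of adhesion pathway genes, those at an unadjusted p under 0.05 are named, or else up to 2 with the smallest p. Cell type markers were not named by that rule, so some at such a p are not named. Tln1, Fermt3, Cd9 and single markers were added to describe a result. Members and lists were chosen with earlier results of these data known. Exon lengths (union over coding transcripts) and coding sequences came from GENCODE M21 (GRCm38), so no coordinate refers to the deposited build. Of the 34 genes, 20 had a RefSeq promoter. One integrin gene is not reported here.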

Additional observations from a re-analysis of the deposited data

How the results depend on the processing

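The 14 alternatives were other scaling factors, 2 other added values, 2 other filters, the deposited values as they are, limma-voom fitted to recovered reads, shrinkage without the robust step, the replicate block, each library left out and, added after seeing the data, the values read as reads plus 1. In each of them 0 of all tested genes passed an adjusted p under 0.05, where limma gave 820 at an unadjusted p under 0.05 and limma-voom 629. Across the fits without 1 library the unadjusted count ran from 405 to 1098 genes. In those fits the integrin and adhesion genes at an unadjusted p under 0.05 were 1 to 2 higher and 0 to 1 lower, with 9 to 12 above and 4 to 13 below the other group, and a median from -0.57 (ST-HSC 2 left out) to 0.46 (ST-HSC 1 left out). With a filter of 5 CPM in 2 or more libraries, 5 of the 21 integrin and adhesion genes then tested lay above both ST-HSC libraries, since fewer genes were tested. The share over all genes was not taken for that filter. Nor was it taken, by direction, for the fits without 1 library. Their counts therefore cannot be read as more or fewer than among all tested genes. With a library left out, counts above or below the other group can only stay or rise. Counts of genes above or below the other group were not recomputed for fits that leave the values as they are. Of the 26 tested genes, 13 kept their direction in every alternative run, and 13 changed it in at least 1 fit without a library. None of the 26 had a limma adjusted p under 0.05 in any alternative.

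Those that changed direction without a library ranged from -1.49 to 2.53 for Itgb6, -1.63 to 2.24 for Itgb7, -1.51 to 2.98 for Itga1, -1.48 to 3.11 for Itga3, -2.51 to 1.62 for Itga7, -1.08 to 1.82 for Itgae, -0.23 to 0.081 for Itga4, -0.80 to 0.55 for Itga5, -2.01 to 0.062 for Itga2, -0.82 to 0.21 for Itgb2, -1.38 to 0.10 for Itgad, -0.59 to 0.19 for Itgav and -0.12 to 0.31 for F11r. The cause was not tested.

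With the replicate number as a block, 0 genes passed and 887 had an unadjusted p under 0.05, among them 2 integrin and adhesion genes that were higher. That of Icam1 became 0.0509. The correlation over genes of library 1 minus library 2 between the groups was 0.0511. Being taken over all genes, it cannot tell whether some genes differ with the library number. The labels do not say whether libraries of the same number belong together.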
